A study of Mus musculus with 18 samples.

Results

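The genes described here are the 10 DNA replication licensing genes Mcm2, Mcm3, Mcm4, Mcm5, Mcm6, Mcm7, Cdc6, Cdt1, Gmnn and Orc1, out of 19935 genes that the array measured with a probe set of their own. Each was found by its symbol in the platform annotation and had exactly 1 probe set that named it alone. Their levels were read in 18 single mouse 2-cell embryos, each on an array of its own, from natural matings on the inbred 129SVE (129S6/SvEvTac) background. The tested embryos were Parg(110)-/+, carrying 1 Parg allele without exons 2 and 3, and were sired by 3 Parg(110)-/- males (PargA, PargB and PargC, 3 embryos each) on wild-type mothers. Their controls were 9 WT embryos sired by 3 wild-type males (WT1, WT2 and WT3, 3 embryos each), also on wild-type mothers. An embryo is named by its father and its number, so PargB-1 is the first embryo of male PargB. The age of the animals and the hour of embryo collection are not given in the labels.

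The design asked whether embryos fathered by males without the 110 kDa form of PARG, which strips poly(ADP-ribose) chains off proteins, carry other transcript levels than embryos of wild-type males. The embryos themselves lack the deleted exons on the paternal allele only, so a genotype difference can come from the father's sperm or from the embryo's own allele, and the arrays cannot tell these apart. With 3 embryos per father, each genotype rests on 3 fathers, and the labels do not say which embryos shared a mother or a litter. All levels are log2 values, where 1 unit is a 2-fold difference, and they compare embryos for a given gene rather than genes with each other. Each array was scaled to the others, so that the RNA content of an embryo is not part of the values.

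Licensing is the step that permits each origin of replication to fire once in a cell cycle. The origin recognition complex, of which Orc1 is the largest subunit, binds DNA and recruits Cdc6, and with Cdt1 they load the ring of Mcm2 to Mcm7, the core of the replicative helicase, as a double hexamer. Geminin, the product of Gmnn, binds Cdt1 and prevents loading again after S phase has begun. In the mouse, much of this machinery is laid down in the egg as transcript and protein and serves the first cleavage cycles, while the embryo's own genome becomes broadly active at the 2-cell stage.

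Licensing genes are textbook targets of the E2F transcription factors, and their promoters are shown first for that reason. The window read for each gene ran from 250 bases before to 50 bases after the start site in the RefSeq tables for GRCm38.p6, and the sequences searched were the octamers TTTGGCGC, TTTCCCGC, TTTCGCGC and TTTGCCGC on both strands. Of the 8 licensing genes with a window (all but Mcm4 and Gmnn), 7 held at least 1 octamer and Mcm2 held none. Over all genes with a window, 704 of 27025 held one (2.605%), and over all windows of this length 744 of 32851 did (2.26%). The stretches are printed 5′ to 3′ on the strand of the gene, with the octamer in capitals and 9 bases on either side, and for genes with several separate matches the one nearest the start site is shown, with both for Mcm6. Where 2 octamers overlap, as in Mcm5 and the first Mcm6 site, the capitals cover both.
Mcm3, chr1:20820277-20820302, minus strand: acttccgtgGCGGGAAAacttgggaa
Mcm5, chr8:75109347-75109376, plus strand: gccaagaacTTTCGCGCCAAAacgtccagc
Mcm6, chr1:128359795-128359824, minus strand: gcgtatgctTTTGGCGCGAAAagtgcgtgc
Mcm6, chr1:128359736-128359761, minus strand: ttggacgggTTTGGCGCgaagtagct
Mcm7, chr5:138171851-138171876, minus strand: gtgacgacgTTTCGCGCcaatttcgg
Cdc6, chr11:98908004-98908029, plus strand: cggtggagaGCGGGAAAtcgcctggg
Cdt1, chr8:122568038-122568063, plus strand: aactaccttTTTGGCGCcatggcgca
Orc1, chr4:108579418-108579443, plus strand: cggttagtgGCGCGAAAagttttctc

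With the start site as base 1, the printed Mcm3, Mcm7 and Cdt1 octamers begin at bases 20, 17 and 33, inside the transcript. The Orc1 octamer begins at base -27, the 2 Mcm6 sites at bases -110 and -47, the Cdc6 octamer at base -138 and the Mcm5 pair at base -153, all upstream. A match of letters is a description of the promoter and not evidence that a factor was bound in these embryos.

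Before the licensing genes themselves, the arrays were compared as wholes. Correlations between arrays ran between 0.924 and 0.958, and array medians lay between 6.44 and 6.53 in Parg(110)-/+ embryos, against 6.34 and 6.49 in WT embryos. PargB-1 had the lowest mean correlation with the other arrays (0.937). The probe set of Parg itself averaged 10.23 ± 0.48 in Parg(110)-/+ embryos and 10.54 ± 0.41 in WT embryos (SD, n = 9 each), a difference of -0.32 ± 0.20 (SE, limma, adjusted p = 0.571). Where the probes of that probe set lie relative to the deleted exons was not examined. Zona pellucida and other oocyte markers (12 of 12 measured) had a summed linear signal of 20616 to 30659 in Parg(110)-/+ embryos and 21484 to 28927 in WT embryos. The 6 measured 2-cell markers, such as Zfp352, summed to 2570 to 10003 in Parg(110)-/+ embryos and 2710 to 9122 in WT embryos, and 5 of them lay at or above the median of all probe sets. They were 6 of 11 listed. Zscan4c, Zscan4d and Zscan4f were among the listed markers for which no probe set of their own was found.

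None of the 10 licensing genes passed the test for a difference in mean level between the genotypes. Across all 28815 probe sets 0% passed an adjusted p under 0.1 (limma, Benjamini-Hochberg), and the smallest adjusted p anywhere was 0.354. At an unadjusted p under 0.05 10.5% of all probe sets passed (3018), against 0 of the 10 licensing genes, whose smallest adjusted p was 0.594 (Mcm6). The estimate was below 0 for 8 of the 10, all but Mcm3 and Mcm5, where 32.9% of all probe sets were lower in Parg(110)-/+ embryos. That background depended on the scaling of the arrays, being 52% with all array medians made equal and 44.2% after a second quantile normalization, while the licensing genes stayed at 8 of 10. The count of 8 did depend on single embryos. Without WT3-1 the estimates of Mcm7 (0.17) and Cdc6 (0.13) lay above 0. Gmnn was at 0.01 without WT1-1 and Orc1 at 0.04 without WT1-2. Of the probe sets with an unadjusted p under 0.05, 2583 of 3018 were higher in Parg(110)-/+ embryos as deposited and 823 of 1792 with equal medians. Among the probe sets at or above the median level of the array, 41.4% were lower, against 8 of the 9 licensing genes in that range. The median difference of the 10 was -0.09, while that of all probe sets was 0.05. With equal medians these became -0.14 and -0.01, and after the second quantile normalization -0.07 and 0.01.

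**Figure D1:**
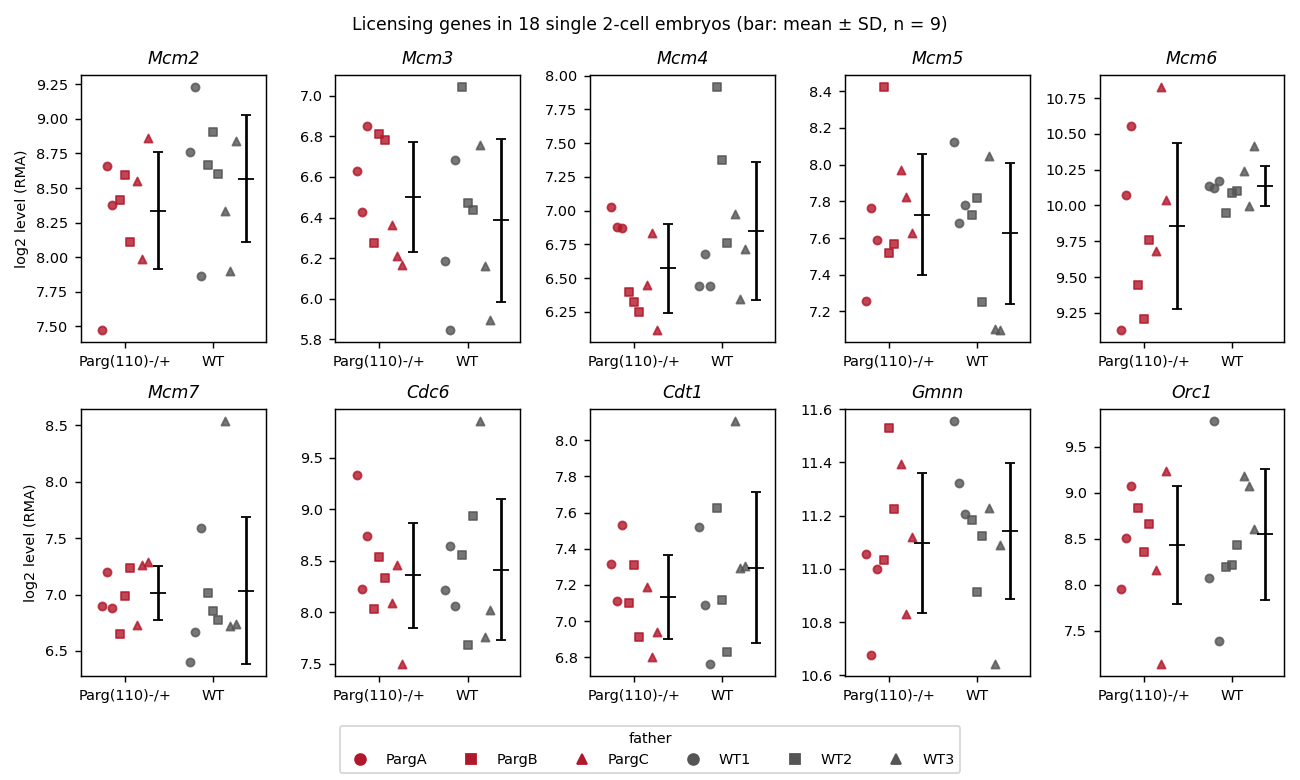
Log2 level (y axis, scaled separately for each gene) of the 10 licensing genes in each of the 9 Parg(110)-/+ embryos (left, red) and the 9 WT embryos (right, grey), with the shape of a point giving the father and the bar the mean ± SD. The groups overlap for every gene, and Mcm6 stands out by the narrow band of its WT values, between 9.95 and 10.42.

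**Figure D2:**
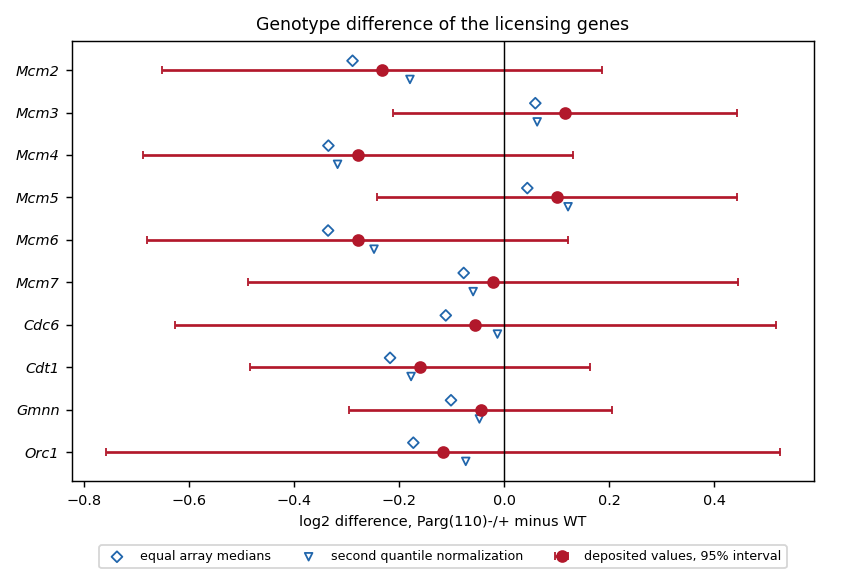
Difference in log2 level, Parg(110)-/+ minus WT (x axis), of each licensing gene (y axis) with its 95% interval from limma (circles), and the same difference after making array medians equal (diamonds) or after a second quantile normalization (triangles). Every interval includes 0, and no gene changes the side of 0 on which its estimate lies under either scaling.

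Orc1, the subunit by which the origin recognition complex is regulated through the cell cycle, varied more between embryos than any other licensing gene, with an SD of 0.66 over the 18 embryos. Its lowest, median and highest levels were 7.13, 8.51 and 9.23 in Parg(110)-/+ embryos, against 7.38, 8.43 and 9.79 in WT embryos. The extremes were the Parg(110)-/+ embryo PargC-2 and the WT embryo WT1-2, and the groups overlapped over nearly their whole range. The means were 8.43 ± 0.64 in Parg(110)-/+ embryos and 8.55 ± 0.71 in WT embryos (SD, n = 9 each), a difference of -0.12 ± 0.30 (SE, limma adjusted p = 0.902) with a 95% interval of -0.76 to 0.52. Embryos of one father were far apart: PargC gave 8.16, 7.13 and 9.23, while WT1 gave 8.07, 9.79 and 7.38. The sign of the Orc1 difference turned when the embryos of either WT3 or PargC were left out (0.09 and 0.01).

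Cdc6, the ATPase that joins the origin recognition complex and brings the helicase to it, had its lowest, median and highest levels at 7.49, 8.33 and 9.33 in Parg(110)-/+ embryos, against 7.68, 8.22 and 9.86 in WT embryos. PargC-3 was lowest of all embryos and WT3-1 highest, and 8 of the 9 Parg(110)-/+ embryos lay within the WT range. The genotype difference was -0.05 ± 0.27 (SE, limma adjusted p = 0.951). Without the single embryo WT3-1 it was 0.13, and without PargC-3 it was 0.05.

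Cdt1, the loading factor that geminin restrains, had levels of 6.80, 7.11 and 7.53 (lowest, median and highest) in Parg(110)-/+ embryos, against 6.76, 7.29 and 8.11 in WT embryos. All 9 Parg(110)-/+ embryos lay within the WT range, and WT3-1 was again the highest. The difference was -0.16 ± 0.15 (SE, limma adjusted p = 0.700), with 6 of 9 Parg(110)-/+ embryos below the WT mean. Without the single embryo WT3-1 it was -0.06, and without all embryos of WT3 -0.02.

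Gmnn, which encodes geminin, was the steadiest of the 10 genes, with an SD of 0.25 over all embryos. It had 10.68, 11.06 and 11.53 (lowest, median and highest) in Parg(110)-/+ embryos, against 10.64, 11.18 and 11.56 in WT embryos. The ranges almost coincided. The means of 11.10 ± 0.26 in Parg(110)-/+ embryos and 11.14 ± 0.26 in WT embryos (SD, n = 9 each) differed by -0.04 ± 0.12 (SE, limma adjusted p = 0.903), and the 95% interval of -0.30 to 0.21 was the narrowest of the 10. The sign turned without WT1 (0.07) and without PargA (0.05).

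The 6 helicase subunits form 1 ring with 1 copy of each. Their genotype differences were -0.23 ± 0.20 for Mcm2, 0.12 ± 0.16 for Mcm3, -0.28 ± 0.19 for Mcm4, 0.10 ± 0.16 for Mcm5, -0.28 ± 0.19 for Mcm6 and -0.02 ± 0.22 for Mcm7 (SE, n = 9 each, limma adjusted p between 0.594 and 0.980). None of these differences passed the test, and leaving out 1 embryo moved several of them: Mcm2 was at -0.12 without PargA-1, Mcm3 at 0.05 without WT1-2, Mcm4 at -0.14 without WT2-1 and Mcm5 at 0.01 without PargB-1. Without all embryos of WT2 the difference of Mcm4 was -0.03, and without those of PargB that of Mcm6 was -0.09. Mcm3 was the only licensing gene whose mean, 6.44, lay below the median of all probe set means (6.47), so its signal is uncertain. That median is not a detection floor. Of the markers of other cells described below, 4 of 10 for sperm and spermatids and 3 of 11 for cumulus, granulosa and oviduct lay at or above it. Examples were Prm1 at 6.68 and Col1a1 at 7.61. Mcm4 (6.71), Mcm7 (7.02) and Cdt1 (7.21) averaged between these, so their signal is uncertain as well.

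Mcm2, a subunit that also binds histones, had 7.47, 8.42 and 8.87 (lowest, median and highest) in Parg(110)-/+ embryos, against 7.86, 8.67 and 9.23 in WT embryos. Only PargA-1, at 7.47, lay outside the WT range. Mcm3 had 6.17, 6.43 and 6.85 in Parg(110)-/+ embryos, against 5.85, 6.43 and 7.05 in WT embryos, with every Parg(110)-/+ embryo inside the WT range. Mcm5, a partner of Mcm2 at the gate through which the ring opens, had 7.26, 7.63 and 8.42 in Parg(110)-/+ embryos, against 7.10, 7.72 and 8.12 in WT embryos. The one embryo above the WT range was PargB-1.

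Mcm4, which forms a stable subcomplex with Mcm6 and Mcm7, differed most between fathers. The Parg(110)-/+ embryos had 7.03, 6.88 and 6.87 (PargA), 6.40, 6.33 and 6.25 (PargB) and 6.45, 6.83 and 6.12 (PargC). The WT embryos had 6.44, 6.68 and 6.44 (WT1), 7.92, 7.38 and 6.76 (WT2) and 6.98, 6.35 and 6.71 (WT3). The 2 highest of all 18 values thus belonged to WT2, and 3 Parg(110)-/+ embryos, PargB-2, PargB-3 and PargC-3, lay below every WT embryo. Set against all 9 WT embryos, the fathers' means differed by 0.08 (PargA), -0.53 (PargB) and -0.38 (PargC), with limma adjusted p of 1.00, 0.416 and 0.826. Means per father ran between 6.32 and 6.93 among Parg(110)-/- fathers and between 6.52 and 7.35 among wild-type fathers. The limma F test among fathers gave an adjusted p of 0.931 within Parg(110)-/+ and 1.00 within WT.

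Mcm6 had the highest ratio of SD in Parg(110)-/+ embryos to SD in WT embryos among the licensing genes, a difference in spread that did not pass the adjusted test. The Parg(110)-/+ embryos had 9.13, 10.07 and 10.56 (PargA), 9.45, 9.21 and 9.76 (PargB) and 9.68, 10.83 and 10.04 (PargC). The WT embryos had 10.14, 10.12 and 10.17 (WT1), 9.95, 10.09 and 10.10 (WT2) and 10.24, 9.995 and 10.42 (WT3). All WT embryos thus fell within 0.47 log2 units, whereas the Parg(110)-/+ embryos covered 1.70, and 7 of 9 lay outside the WT range, 5 below it and 2 above. The mean was 9.86 ± 0.58 in Parg(110)-/+ embryos and 10.14 ± 0.14 in WT embryos (SD, n = 9 each), an SD ratio of 4.23. The difference in mean was -0.28 ± 0.19 (SE, 95% interval -0.68 to 0.12, limma adjusted p = 0.594).

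The spread was tested after these Mcm6 values had been seen, so that it is a description and no independent test. The mean absolute deviation of Mcm6 from the mean of its genotype was 0.460 in Parg(110)-/+ embryos and 0.0944 in WT embryos, a difference of 0.365. In the limma fit, where each deviation was scaled up to allow for a mean taken from the same embryos, the difference was 0.39 ± 0.11 (SE, adjusted p = 0.321). At an unadjusted p under 0.05 9.02% of all probe sets differed in spread and 4.41% were wider in Parg(110)-/+ embryos, and Mcm6 was the 1 licensing gene among them. After adjustment 0.0763% of all probe sets passed (22) and none of the licensing genes did. An exact two-sided permutation test of Mcm6 alone, over all 48620 ways to assign 9 of the 18 embryos, gave p = 0.00564 for mean absolute deviations from the median of 0.449 in Parg(110)-/+ embryos and 0.0931 in WT embryos. That permutation p is unadjusted, and Mcm6 was picked for its spread. The assignments treated single embryos as independent, although genotype was set by the father and 3 embryos share each father. The permutation p therefore cannot show whether the difference would hold over other fathers. With deviations from the father's mean the means were 0.383 in Parg(110)-/+ embryos and 0.0767 in WT embryos, a difference of 0.306. As scaled for the limma fit that difference was 0.38 (adjusted p = 0.258). With one embryo left out the scaled difference from the genotype mean lay between 0.30 (without PargC-2) and 0.44. The other 9 licensing genes had SD ratios between 0.37 (Mcm7) and 1.03 (Gmnn). A wide Parg(110)-/+ range beside a narrow WT one was not particular to Mcm6 among replication genes. Clspn had an SD of 0.66 in Parg(110)-/+ embryos and 0.17 in WT embryos, and Cdc45 had 0.56 and 0.21. Other replication genes went the other way, such as Rfc3 with 0.26 and 0.79.

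By father, the Mcm6 means were 9.92 ± 0.73 for PargA, 9.47 ± 0.28 for PargB and 10.18 ± 0.59 for PargC, against 10.15 ± 0.02 for WT1, 10.05 ± 0.08 for WT2 and 10.22 ± 0.21 for WT3 (SD, n = 3 each). PargB was the only father whose 3 embryos all lay below the WT range, with a difference of -0.67 ± 0.24 from the 9 WT embryos (limma, adjusted p = 0.307). The PargA difference was -0.22 (adjusted p = 0.997) and became 0.18 without PargA-1, and the PargC difference was 0.05 (adjusted p = 0.989) and became -0.28 without PargC-2. Across all probe sets the comparisons of single fathers with the WT embryos called 0% (PargA), 0.0139% (PargB) and 0.0104% (PargC), and the F tests called 0.0104% within Parg(110)-/+ and 0.00347% within WT. No licensing gene was among them.

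**Figure D3:**
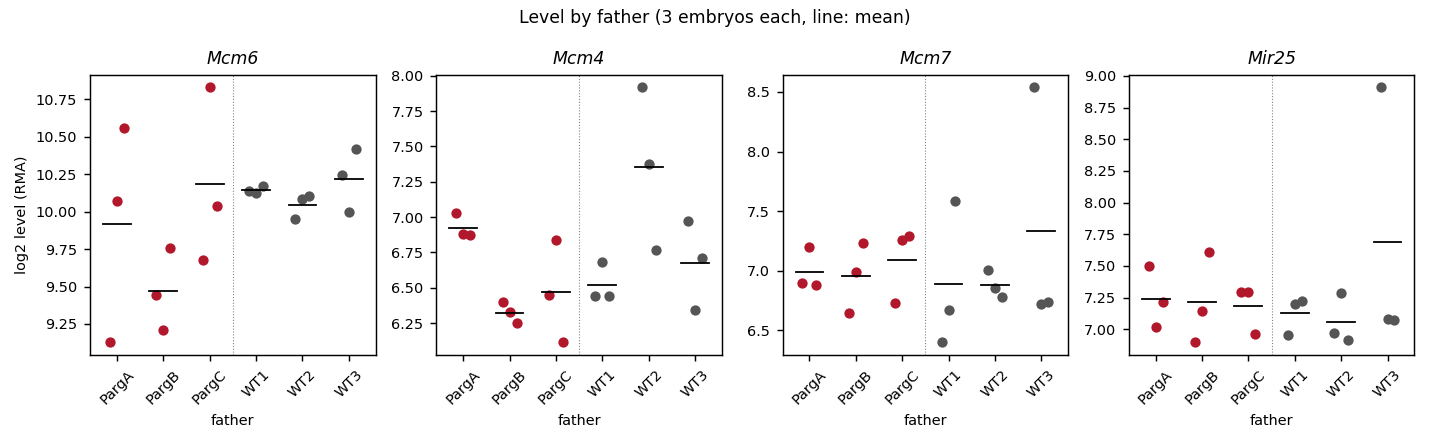
Log2 level (y axis) of Mcm6, Mcm4, Mcm7 and Mir25 in the 3 embryos of each father (x axis, Parg(110)-/- fathers left of the dotted line and wild-type fathers right of it), with a line at their mean. The panel of Mcm6 shows the wide range of Parg(110)-/+ embryos beside the narrow WT one, that of Mcm4 the high embryos of WT2, and the last 2 panels the single embryo WT3-1 at 8.54 and 8.91.

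Mcm7, a helicase subunit whose gene also carries microRNAs, had 6.65, 6.99 and 7.29 (lowest, median and highest) in Parg(110)-/+ embryos, against 6.40, 6.78 and 8.54 in WT embryos. A single WT embryo, WT3-1, stood far above all others at 8.54. The next highest was WT1-3 at 7.59, and all Parg(110)-/+ embryos were below both. The genotype difference of -0.02 was 0.17 without WT3-1 and 0.13 without all 3 embryos of WT3.

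The microRNAs miR-25, miR-93 and miR-106b lie within Mcm7 on the same strand, and their precursors have probe sets of their own on the array, which were looked at after the Mcm7 values had been seen. A probe set for such a gene reads RNA across the precursor and not the mature molecule, and cannot tell it from other RNA of the Mcm7 locus. The mature strands, with the seed (bases 2 to 8) in capitals, show that miR-93-5p and miR-106b-5p share a seed that miR-25-3p does not have.
mmu-miR-25-3p: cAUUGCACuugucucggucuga
mmu-miR-93-5p: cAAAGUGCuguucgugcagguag
mmu-miR-106b-5p: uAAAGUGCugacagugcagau

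They are encoded at chr5:138165332-138165353, chr5:138165574-138165596 and chr5:138165787-138165807 of GRCm38.p6, all on the minus strand. Mir25 had 6.90, 7.21 and 7.61 (lowest, median and highest) in Parg(110)-/+ embryos, against 6.91, 7.09 and 8.91 in WT embryos. The highest was WT3-1, the embryo that was also highest for Mcm7. The genotype difference of Mir25 was -0.08 ± 0.21 (SE, limma adjusted p = 0.908), and without WT3-1 it was 0.13. Mir93 had 6.27, 6.51 and 6.94 in Parg(110)-/+ embryos, against 6.27, 6.57 and 6.76 in WT embryos, with WT3-1 the highest of the WT embryos but not of all. Mir106b, at 6.15 in WT3-1, had 5.91, 6.17 and 6.42 in Parg(110)-/+ embryos, against 6.03, 6.36 and 6.91 in WT embryos. The difference of Mir106b was -0.22 ± 0.10 (SE, limma adjusted p = 0.465), with 8 of 9 Parg(110)-/+ embryos below the WT mean. WT3-1 was thus the highest embryo for Mcm7 and Mir25 but the second lowest WT embryo for Mir106b. Mir106b averaged 6.27, below the median of all probe set means (6.47). Mir93 (6.54) and Mir25 (7.25) averaged below the marker Col1a1 (7.61), so the signal of all 3 is uncertain.

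Taking the 10 genes embryo by embryo, WT3-1 was the highest of all 18 embryos for Mcm7, Cdc6 and Cdt1 and lay above the median in 9 of 10 genes, with a mean deviation of 0.58 from the gene means. WT2-1 was highest for Mcm3 and Mcm4 and above the median in 8 of 10, and WT1-2 was highest for Mcm2 and Orc1. At the other end, WT3-2, of the same father as WT3-1, was above the median in 2 of 10 genes, with a mean deviation of -0.25. PargA-1 was lowest for Mcm2 and Mcm6, PargC-3 for Mcm4 and Cdc6 and PargC-2 for Orc1, while WT embryos were lowest for the other 5 genes (WT1-2 for Mcm3, WT3-3 for Mcm5, WT1-1 for Mcm7, WT1-3 for Cdt1 and WT3-2 for Gmnn). Of the 10 highest values 8 belonged to WT embryos and 2 to Parg(110)-/+ embryos (Mcm5 in PargB-1 and Mcm6 in PargC-2), while the 10 lowest values were split 5 and 5. The array of WT3-1 had a median of 6.38 and, after PargB-1, the lowest mean correlation with the other arrays (0.946).

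**Figure D4:**
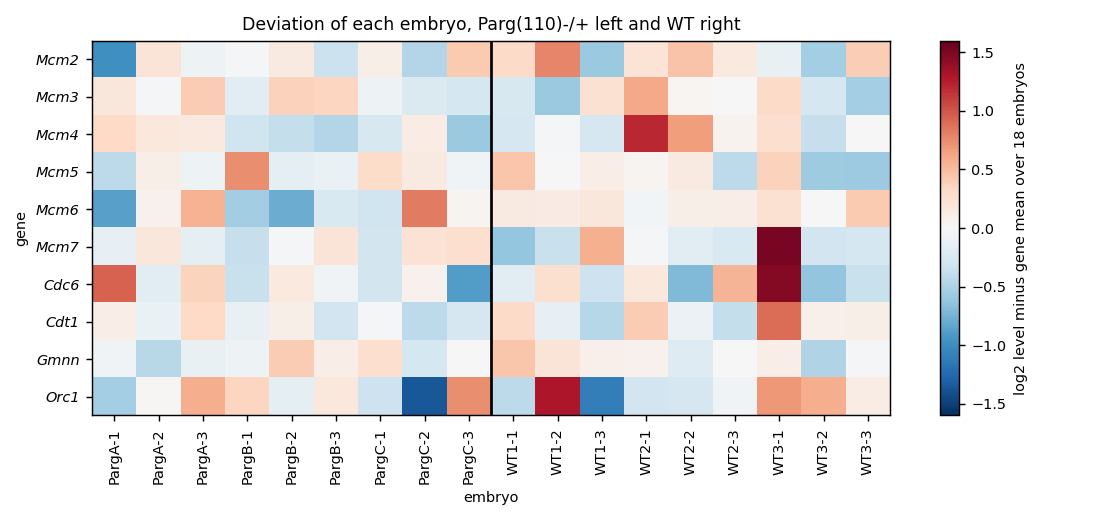
Deviation of each embryo's log2 level from the mean of the gene over 18 embryos (colour, log2 units) for the 10 licensing genes (rows) in 9 Parg(110)-/+ embryos (left of the line) and 9 WT embryos (right of it). Dark cells are scattered over single genes rather than filling columns, apart from WT3-1, where Mcm7, Cdc6 and Cdt1 are high.

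The levels of the licensing genes were only weakly related across embryos. Of the 45 pairs 29 had a positive Pearson r, with a median of 0.10, and among the 15 pairs of helicase subunits 11 did. The closest pair was Cdc6 and Cdt1, with r = 0.52 and rho = 0.32 over 18 embryos (permutation p = 0.0288 and 0.193, adjusted over the 45 pairs to 0.714 and 0.916). Leaving out the 2 embryos farthest from the median of Cdc6, WT3-1 among them, brought r to 0.11, so the relation rests on those embryos. Within genotypes it was 0.53 in Parg(110)-/+ embryos and 0.53 in WT embryos. The most opposed pair was Mcm2 and Mcm3, with r = -0.37 and rho = -0.34 (permutation p = 0.137 and 0.165, adjusted 0.749 and 0.916) and r = -0.30 without the 2 farthest embryos. No pair passed the adjustment.

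The genes whose levels followed the mean of Mcm2 to Mcm7 most closely, out of 10255 ranked over the 18 embryos, were Smyd3 (r = 0.75), E2f8 (0.73), Fam20b (0.72), Eif4g3 (0.71) and Terf2 (0.70). Within genotypes the r of these 5 genes lay between 0.30 (Fam20b) and 0.55 (E2f8) in Parg(110)-/+ embryos and between 0.77 (E2f8) and 0.89 (Smyd3) in WT embryos, so that the pooled values rest more on the WT embryos. The rho of each of these 5 genes over the 18 embryos was lower than its r, between 0.56 (E2f8) and 0.69 (Eif4g3). E2f8 is an E2F family member that represses transcription. For Gmnn the closest genes were Mrpl34 (r = 0.72), Stom (0.71), Rpp14 (0.70), Terf1 (0.70) and Mlxip (0.70). Their rho lay between 0.57 (Mlxip) and 0.69 (Rpp14). Both lists are the top of a ranking over many genes in few embryos and carry no test. Terf1 and Terf2 encode the telomere repeat binding factors.

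The neighbours of the licensing genes in the replication pathway were read from lists by function, and again no gene passed an adjusted p under 0.1 in any of them. The background for the counts that follow is 67.1% of all probe sets higher and 32.9% lower in Parg(110)-/+ embryos as deposited, and 48% and 52% with equal array medians. At an unadjusted p under 0.05, 10.5% of all probe sets passed as deposited. Of those 3018 probe sets, 2583 were higher in Parg(110)-/+ embryos, against 823 of 1792 with equal medians. Of the 8 other origin recognition and loading genes 5 were higher and 3 lower in Parg(110)-/+ embryos, with a median difference of 0.03. Kat7, a histone acetyltransferase that acts at origins, was the 1 of these 8 with an unadjusted p under 0.05. Kat7 was lower in Parg(110)-/+ embryos, the rarer direction at that p among all probe sets as deposited. It had 7.14, 8.55 and 8.88 (lowest, median and highest) in Parg(110)-/+ embryos, against 7.96, 8.85 and 9.72 in WT embryos, and all 9 Parg(110)-/+ embryos lay below the WT mean (-0.71 ± 0.28 SE, limma adjusted p = 0.422). Orc3 (-0.34) and Lrwd1 (0.12), which stabilises the origin recognition complex on chromatin, came next. With means of 6.08 and 6.39, both lay below the median of all probe set means, so their signal is uncertain. In the MCM and geminin families 4 of 5 other genes were higher, with Mcidas, a geminin relative of multiciliated cells, at 0.16 ± 0.07 (SE, limma adjusted p = 0.472), Mcm9 at 0.16 and Mcmdc2 at 0.07. Of these 5 only 2, Mcm9 (mean 6.89) and Mcidas (7.05), averaged at or above the median of all probe set means. Both lay below Col1a1 (7.61), so the signal of all 5 is uncertain.

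Among the 8 genes of Cdt1 and geminin turnover 6 were lower and 2 higher, with a median of -0.08. Dtl, the adaptor that delivers Cdt1 to the CUL4 ubiquitin ligase in S phase, had 7.88, 8.14 and 9.45 (lowest, median and highest) in Parg(110)-/+ embryos, against 7.88, 9.51 and 10.29 in WT embryos. The lowest values of both genotypes were the same, but 8 of 9 Parg(110)-/+ embryos lay below the WT mean, and the difference was -0.85 ± 0.33 (SE, limma adjusted p = 0.418). Skp2, another adaptor for Cdt1, was at -0.36, and Cul4b at 0.13. WT3-1, high for Cdt1, was also the highest embryo for Dtl, at 10.29.

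Of the 14 helicase activation genes, which turn the loaded ring into a working helicase, 11 were lower and 3 higher. Their median was -0.11 as deposited and -0.17 with equal array medians. An unadjusted p under 0.05 was reached by 3 of the 14, all 3 lower in Parg(110)-/+ embryos. As deposited, 10.5% of all probe sets passed and 8.96% were higher. With equal medians 823 of the 1792 that passed were higher, so that lower was then the commoner direction. Mcm10, a factor needed for the helicase to start, had 7.55, 8.42 and 9.31 (lowest, median and highest) in Parg(110)-/+ embryos, against 8.35, 8.78 and 9.87 in WT embryos, a difference of -0.68 ± 0.26 (SE, limma adjusted p = 0.420). Gins4, a subunit of the GINS complex, was at -0.25 ± 0.12, and Topbp1, which helps to recruit it, at -0.18 ± 0.09 (SE, limma adjusted p = 0.470 and 0.477). The unadjusted limma p of these 2 genes, 0.0457 and 0.0499, lay only just under 0.05. The 27 genes of the replication fork split into 14 higher and 13 lower with a median of 0.00, and the sliding clamp Pcna differed by 0.00 ± 0.05. The smallest p values there belonged to Prim2 (-0.84 ± 0.42), Rfc4 (0.65 ± 0.37) and Pold4 (0.15 ± 0.09). The Rfc4 difference was 0.30 without PargB-3. Rfc4 (mean 5.79) and Pold4 (6.20) averaged below the median of all probe set means, so their signal is uncertain. Of 6 genes of deoxynucleotide supply 3 were higher and 3 lower, with Rrm1 at 0.41, Rrm2 at -0.20 and Tk1 at -0.35.

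E2f1, an activator of licensing genes in cycling cells, had 9.95, 10.16 and 10.38 (lowest, median and highest) in Parg(110)-/+ embryos, against 10.15, 10.42 and 10.80 in WT embryos. The groups overlapped, but all 9 Parg(110)-/+ embryos lay below the WT mean of 10.44, and the difference was -0.25 ± 0.09 (SE, limma adjusted p = 0.381). At an unadjusted p under 0.05, 10.5% of all probe sets passed as deposited, and 8.96% of all probe sets were higher in Parg(110)-/+ embryos at that p. With equal medians 823 of the 1792 that passed were higher. E2f1, which was lower, was the 1 of 13 E2F and pocket protein genes that passed. The others included E2f5 (0.46) and E2f8 (-0.46), and 9 of the 13 were higher in Parg(110)-/+ embryos, with a median of 0.10. The median of the list thus lay on the other side of 0 from E2f1.

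**Figure D5:**
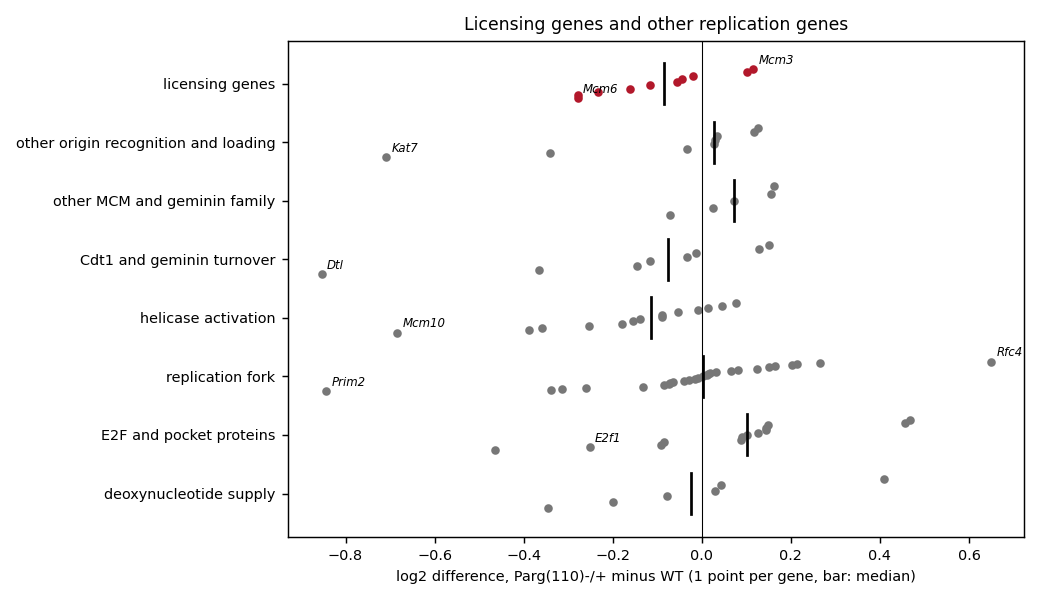
Difference in log2 level, Parg(110)-/+ minus WT (x axis), of every measured gene (points) in the licensing list (red) and 7 related lists (grey) named on the y axis, with a bar at the median of each list. The licensing genes lie between -0.28 and 0.12, while single genes of other lists such as Dtl, Prim2, Kat7 and Mcm10 reach below -0.68, and no gene passed the adjusted threshold.

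Markers of cells other than the embryo were measured beside these lists. Cumulus, granulosa and oviduct markers (11 measured, 3 of them at or above the median of all probe sets) summed to a linear signal of 866 to 1180 in Parg(110)-/+ embryos and 759 to 946 in WT embryos, and 10 of the 11 were higher in Parg(110)-/+ embryos. Among these markers Inhba had a highest log2 level of 8.42 in Parg(110)-/+ embryos, where its median was 6.58, against a highest of 6.51 in WT embryos. A single high value of this kind weighs heavily in a linear sum. Blood cell markers (7 measured, all 7 higher) summed to 350 to 392 in Parg(110)-/+ embryos and 311 to 393 in WT embryos. Sperm and spermatid markers (10 measured, all 10 higher) summed to 705 to 820 in Parg(110)-/+ embryos and 623 to 943 in WT embryos. None passed the adjusted threshold, and 4 of 11 cumulus, granulosa and oviduct markers, 1 of 7 blood cell markers and 3 of 10 sperm and spermatid markers were higher at an unadjusted p under 0.05, where 8.96% of all probe sets were and 67.1% were higher at any p. The median differences of these 3 lists, 0.10, 0.09 and 0.12, became 0.05, 0.03 and 0.06 with equal array medians. Their part in the values of the licensing genes was not tested.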

How the data were processed

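The deposited values were log2 levels per probe set, which the authors made from Affymetrix Mouse Gene 1.0 ST arrays by RMA in Partek (versions not given in the sources used here), after amplifying the RNA of each embryo with the WT-Ovation One-Direct kit. They were used as deposited: 28815 probe sets, of which 21780 name 1 gene, 1605 several and 5430 are not listed in the annotation. Precision is limited by the number of arrays.

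The genotypes were compared with limma 3.58.1 in R 4.3.3 (9 against 9 embryos), each Parg(110)-/- father's 3 embryos were compared with the 9 WT embryos, and fathers were compared within each genotype by F tests. P-values were adjusted by Benjamini-Hochberg over all probe sets and called under 0.1, as in the study. They measure the spread between embryos, although 3 embryos share each father. The fits were also run on simulated data, in which embryos were drawn independently of each other. The changes in mean put in were larger than the differences of the licensing genes, so those runs do not speak to differences of that size. Correlations between genes used 100000 permutations (scipy 1.17.1).

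The licensing genes and all lists were chosen with earlier results of these data known. All 10 licensing genes are named, and from each related list the 3 genes with the smallest genotype p. Pcna was named in addition, after its values were seen, as were the microRNA genes and the test of spread. Alternatives were equal array medians, a second quantile normalization, probe sets above the median level only, a plain one-way test, father as a random block, means per father, and leaving out each embryo or father.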

Additional observations from a re-analysis of the deposited data

Results flagged for a closer look

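In 2 of 68 groups tested, over 34 genes, 1 embryo lay far from the other 8 of its genotype. For normal and independent values such a flag is expected in about 1 of 20 groups. Some of the 34 genes were picked by their genotype p or after values had been seen, so that rate need not hold here. Rfc4, a subunit of the clamp loader, was at 8.89 in PargB-3, while the next highest Parg(110)-/+ embryo had 6.87, and without PargB-3 the genotype difference of 0.65 was 0.30. The mean of Rfc4 over the 18 embryos, 5.79, lay below the median of all probe set means, so its signal in most embryos is uncertain. Mir25 was at 8.91 in WT3-1, while the next highest WT embryo had 7.29. Mcm7, the gene in which Mir25 lies, was at 8.54 in the same embryo.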

How the results depend on the processing

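No licensing gene was called in the genotype comparison under any scaling, filter, test or father setting tried. Of the results that leave nothing out, 146 kept their direction and side of the threshold, 6 counts moved by over 1.5 times and 2 turned: the Mir93 difference was -0.0171 with equal medians and -0.0162 after quantile normalization a second time. The PargB count of 4 was 2 with equal medians, 2 quantile-normalized again and 2 with brighter probe sets only. The count among WT fathers of 1 was 0 with brighter probe sets, and the spread count of 22 was 0 with deviations from the median and 5 from the father's mean. Leaving out embryos or fathers gave 0 to 3 calls between genotypes (3 without WT1, against 0), 1 to 20 for PargA (20 without PargA-1), 35 to 72 for PargB, 20 to 32 for PargC, 3 to 16 among Parg(110)-/+ fathers, 0 to 17 among WT fathers and 8 to 41 for spread.

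Leaving out 1 embryo turned the sign of Gmnn (0.01 without WT1-1, 0.01 without PargA-2), Orc1 (0.04 without WT1-2, 0.05 without PargC-2), Mcm7 (0.05 without WT1-3, 0.17 without WT3-1, 0.02 without PargB-1, 0.02 without PargC-1), Cdc6 (0.01 without WT2-3, 0.13 without WT3-1, 0.05 without PargC-3), Mir25 (0.13 without WT3-1), Mir93 (-0.00885 without PargC-1) and Mcm6 by father (PargA 0.18 without PargA-1, PargC -0.28 without PargC-2). Leaving out 1 father did so for Gmnn (0.0653 without WT1, 0.05 without PargA), Mcm5 (-0.00404 without WT3), Mcm7 (0.13 without WT3, 0.01 without PargB), Cdc6 (0.01 without WT3, 0.12 without PargC) and Orc1 (0.0875 without WT3, 0.01 without PargC). Over all left-out embryos and fathers these differences ran between -0.00404 and 0.219 (Mcm5), -0.0993 and 0.168 (Mcm7), -0.258 and 0.126 (Cdc6), -0.128 and 0.0653 (Gmnn), -0.262 and 0.0875 (Orc1), -0.126 and 0.126 (Mir25), -0.00885 and 0.0745 (Mir93), -0.536 and 0.179 (Mcm6, PargA) and -0.276 and 0.299 (Mcm6, PargC). None of these differences had been called, and the cause was not tested. At an unadjusted p under 0.05 the genotype comparison passed 3018 probe sets, against 1792 with equal medians, 1820 after the second quantile normalization, 1335 of 14408 brighter probe sets and 2205 with means per father. With equal medians 823 of the 1792 were higher in Parg(110)-/+ embryos, against 2583 of 3018 as deposited. The consensus correlation within fathers was -0.02.

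Another probe set per licensing gene gave no value, since each has 1, and Mcm3 is not among the brighter probe sets. No paired analysis was possible because embryo numbers only count the embryos of 1 father.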
